A study of Mus musculus with 18 samples.

Results

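The 10 male kidney libraries of a maternal diet study were ordered by their content of 5 tubule genes, and the 5 libraries with the highest score were set beside the 5 with the lowest. The score was the mean log2(CPM + 1) of *Aqp2*, *Aqp3*, *Fxyd4*, *Slc12a1*, and *Umod*, where CPM is a gene's count scaled to a common total counted on genes. The sides were chosen by these measured values, not by a label. These 10 libraries are the males of 18 libraries in all, 1 per mouse. The mice were wild-type offspring of the outbred CD-1 stock, aged 6 wk. LP males (n = 5) came from dams fed 8% protein through gestation and lactation, NP males (n = 5) from dams fed 18% protein, and all offspring ate the 18% diet after weaning. The 8 females (5 LP, 3 NP) were not used to set the sides. All mice, controls included, received horse spleen cationic ferritin, with the final injection 90 min before tissue collection in males and 24 h before it in females. RNA came from a piece of the left kidney per the extraction protocol, although the design text of the series speaks of a whole kidney. Such a piece can hold more or less of the medulla, and which region each piece held is not given in the sources used here.

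The kidney is layered. The cortex holds the glomeruli, the first parts of the proximal tubule, and the distal convoluted tubule, while the medulla holds the loops of Henle and the inner collecting ducts. The thick ascending limb takes up salt without water and runs from the outer medulla into the cortex. The collecting duct passes through every layer, and its principal cells reabsorb water through aquaporins under vasopressin. In the inner medulla, urea transporters and organic osmolytes belong to the machinery of urine concentration.

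Of the score genes, *Aqp2* encodes the vasopressin-regulated water channel of the apical membrane of principal cells, *Aqp3* the basolateral water channel of the same cells, and *Fxyd4* a regulator of the sodium pump in the collecting duct. *Slc12a1* encodes the sodium-potassium-chloride cotransporter of the thick ascending limb, and *Umod* encodes uromodulin, the protein that this limb secretes into urine. On GRCm39, *Aqp2* lies at chr15:99476936-99485016, *Aqp3* at chr4:41092722-41098183, *Fxyd4* at chr6:117910299-117914653, and *Slc12a1* at chr2:124994425-125071922. The stretches below are RefSeq sequence of GRCm38.p6, and they are shown because HNF1 factors regulate many tubule genes and NFAT5 regulates osmolyte genes. The *Umod* stretch is the 250 bases before the gene's start (chr7:119479263-119479512, minus strand), and its capitals mark the letters GTTAAT, an HNF1 half-site, which begin at -202 from the start. The *Slc6a12* stretch is 30 bases before 1 of the 5 starts listed for that betaine transporter (chr6:121342487-121342516, plus strand), and its capitals mark TGGAAA, the core that NFAT5 recognizes, which begins at -75.
Umod: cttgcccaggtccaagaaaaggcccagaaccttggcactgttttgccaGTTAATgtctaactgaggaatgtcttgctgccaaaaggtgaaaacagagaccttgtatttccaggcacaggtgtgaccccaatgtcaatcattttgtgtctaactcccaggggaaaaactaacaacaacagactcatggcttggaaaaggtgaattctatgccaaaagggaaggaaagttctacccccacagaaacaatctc
Slc6a12: gcaggtacttggTGGAAAactccagtctgt
Both strands were searched in windows of 250 bases before to 50 bases after each start, and matches of the 2 motifs can share at most 1 letter. GTTAAT was in 7.1% and TGGAAA in 21.4% of 32851 mouse windows. Of the 5 score genes, 1 had GTTAAT and 1 had TGGAAA, and both were *Umod*. Among osmolyte genes searched, TGGAAA was in 1 of 5 *Slc6a12* windows and 0 of 1 *Slc5a3* windows, and *Akr1b1* had no window. These are matches of letters, and no binding was measured.

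The scores ran from 7.41 to 8.56 and left a gap of 0.35 between the sides. The higher-score libraries were NP male 5 at 8.56, LP male 4 at 8.40, LP male 5 at 8.39, NP male 2 at 8.25, and NP male 1 at 8.10. The lower-score libraries were NP male 4 at 7.75, LP male 3 at 7.75, LP male 1 at 7.61, LP male 2 at 7.52, and NP male 3 at 7.41. The means were 8.34 ± 0.17 (SD, n = 5) and 7.61 ± 0.15 (SD, n = 5), a difference of 0.73. Both diets were on both sides, with 2 LP and 3 NP males among the higher-score libraries and 3 LP and 2 NP males among the lower-score libraries. NP males held both the highest and the lowest score. Since the sides were set by measured values, every difference between them is a description and carries no test.

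*Aqp2* and *Fxyd4* separated the sides, whereas the other score genes overlapped. *Aqp2* stood at 639, 429.5, 404, 404, and 394 CPM in the higher-score libraries and at 230.4, 217, 191, 181, and 155 CPM in the lower-score libraries. Every higher-score library was above every lower-score one, with a difference of mean log2(CPM + 1) of 1.20. *Fxyd4* stood at 37.3, 33.4, 32.0, 29.3, and 22.1 CPM against 16.95, 14.2, 13.5, 11.96, and 11.5 CPM, again with no overlap. The difference of *Fxyd4* was 1.11. *Aqp3* ranged from 89.8 to 133 CPM against 60.5 to 103 CPM, a difference of 0.45. *Slc12a1* ranged from 727 to 1252 CPM against 579 to 883 CPM, a difference of 0.47. *Umod* ranged from 1874 to 2637 CPM against 1331 to 2108 CPM, a difference of 0.42. The collecting duct genes *Aqp2* and *Fxyd4* thus carried more of the gap than the thick ascending limb genes did.

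**Figure D1:**
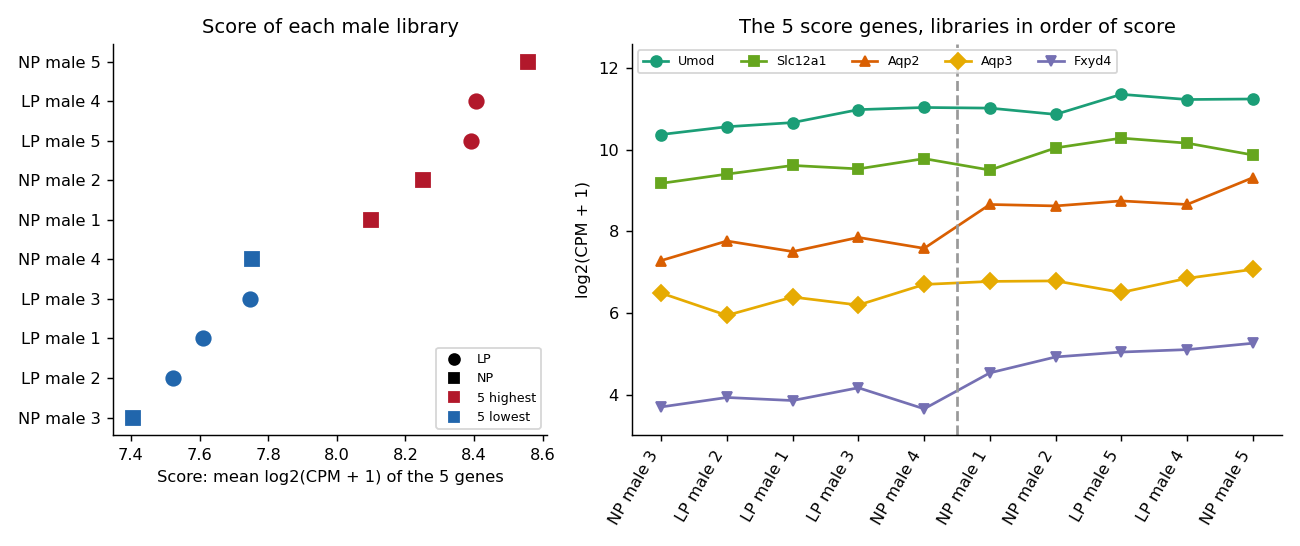
Left: score of each male library, mean log2(CPM + 1) of the 5 genes, with LP males as circles and NP males as squares. Right: log2(CPM + 1) of each score gene with the libraries in order of score, where the dashed line divides the 5 lowest from the 5 highest; *Aqp2* and *Fxyd4* do not overlap across it, and *Umod*, *Slc12a1*, and *Aqp3* do.

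Depth and technical measures overlapped between the sides. Totals counted on genes were 15358102 to 21794303 (median 18183562) in the higher-score and 14050486 to 19701660 (median 15324882) in the lower-score libraries. Reads not assigned to a single gene were 28.6% to 30.8% and 29.4% to 30.1%. Mitochondrial genes took 5.47% to 7.61% of the counts (median 5.69%) in the higher-score and 6.04% to 8.92% (median 6.88%) in the lower-score libraries, and the part of this in the results was not tested. In RNA from whole pieces of tissue, fewer cells of a type and less RNA per cell cannot be told apart.

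Of 13176 genes with at least 10 counts in every male library, the score genes left out, 203 (1.54%) did not overlap between the sides. The direction was uneven: 182 (1.38%) were higher and 21 (0.159%) were lower in the higher-score libraries. Genes that did not overlap and also differed at least 1.5-fold numbered 69 higher (0.524%) and 0 lower. For these score sides, the 69 became 139 without NP male 1, and 12 with the sides set by the thick ascending limb genes alone, under which NP male 1 and NP male 4 exchanged sides. Without the demand on overlap, 169 genes were at least 1.5-fold higher and 61 at least 1.5-fold lower. Fold changes are on the log2(CPM + 1) scale, which understates the change of genes at low CPM. The median difference over all genes was 0.03, and 0.01 after TMM scaling. The choice of these genes fixes their direction within each diet, and 51 of them differed at least 1.5-fold both within LP males and within NP males. That the sides and these genes come from the same libraries means that such counts describe these 10 pieces of kidney.

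The 10 genes with the greatest difference among those without overlap included inner medullary and collecting duct genes. *Muc20*, a membrane mucin, led with 20.7, 13.3, 12.8, 11.6, and 10.96 CPM in the higher-score against 5.38, 3.72, 2.55, 2.14, and 1.52 CPM in the lower-score libraries, a difference of 1.91. *Wnt7b*, a Wnt ligand of the collecting duct that is needed for the medulla to form, stood at 16.1, 13.9, 12.5, 12.3, and 10.96 CPM against 7.77, 5.02, 4.43, 4.07, and 3.49 CPM, a difference of 1.28. *Adora1*, the adenosine A1 receptor, stood at 13.4, 12.8, 10.1, 6.98, and 6.25 CPM against 5.04, 3.63, 3.45, 3.22, and 1.37 CPM. In each of these genes the lowest value of the higher-score side was above the highest value of the other. *Plet1* ranged from 22.8 to 52.8 CPM against 9.46 to 17.1 CPM, a difference of 1.27. *Proser2* ranged from 6.32 to 11.7 CPM against 2.14 to 5.20 CPM, a difference of 1.34. *Fam174b* ranged from 14.5 to 25.2 CPM against 6.20 to 11.9 CPM, a difference of 1.26. The remaining 4 of the 10, *Slc14a2*, *Trpv6*, *Cryab*, and *Slc4a11*, belong to the gene lists described next. *Plet1* differed by 1.72 within LP males and 1.04 within NP males, and *Muc20* by 1.96 and 1.97.

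**Figure D2:**
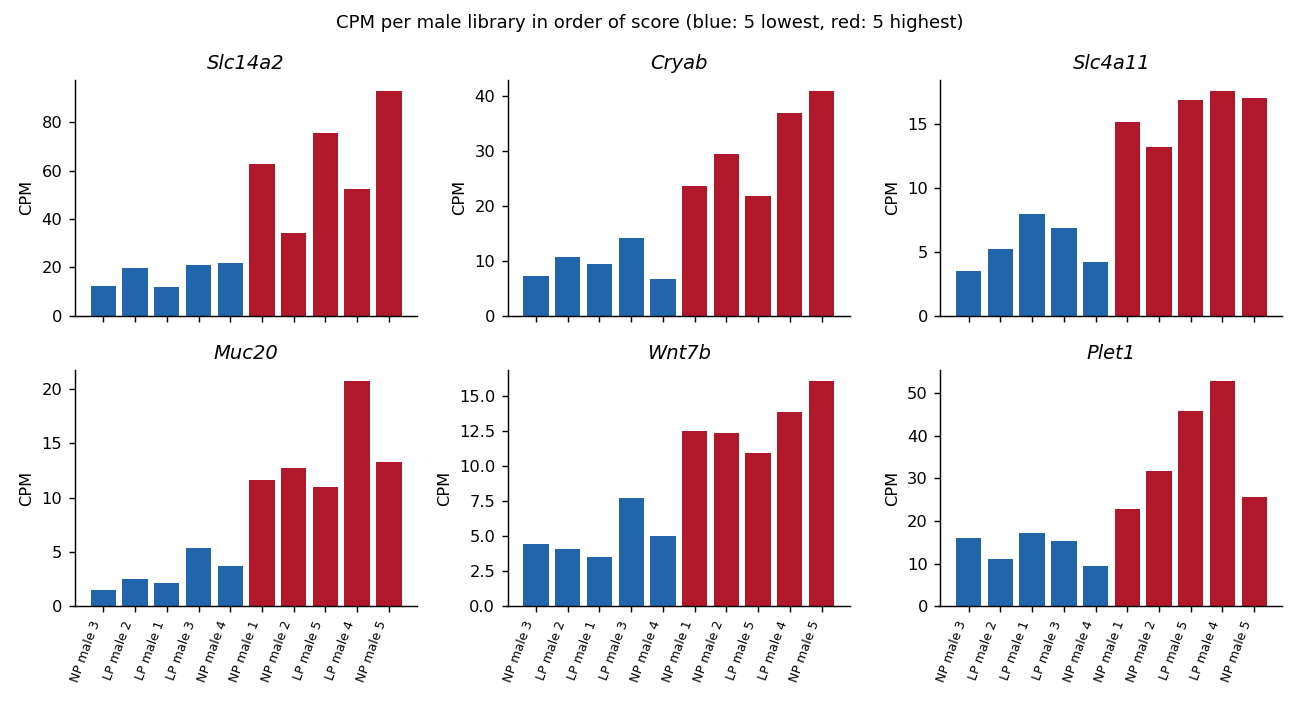
CPM of 6 genes in each male library, with libraries in order of score from left to right, the 5 lowest in blue and the 5 highest in red. Each panel starts at 0 and has its own scale; in all 6 genes the 5 red bars are taller than every blue bar.

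The genes of the thin limbs and inner medulla differed most. Of the 8 listed, 7 had enough counts, and all 7 were higher in the higher-score libraries. Of these 7, 5 did so without overlap and at least 1.5-fold, beside 0.524% of all genes. The median difference of the 7 was 1.41 beside 0.03 over all genes. *Slc14a2*, which encodes the UT-A urea transporters of the inner medullary collecting duct and thin descending limb, stood at 92.9 CPM in NP male 5, 75.4 in LP male 5, 62.7 in NP male 1, 52.3 in LP male 4, and 34.3 in NP male 2. In the lower-score libraries *Slc14a2* stood at 21.7 CPM in NP male 4, 20.9 in LP male 3, 19.7 in LP male 2, 12.4 in NP male 3, and 11.9 in LP male 1. This was a difference of 1.78, or 3.44-fold, the second largest among the genes without overlap.

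*Cryab*, a small heat shock protein that is abundant in the inner medulla, stood at 41.0, 36.9, 29.5, 23.6, and 21.8 CPM against 14.1, 10.7, 9.47, 7.22, and 6.66 CPM, a difference of 1.57. *Slc4a11*, a member of the bicarbonate transporter family, stood at 17.6, 17.05, 16.9, 15.2, and 13.2 CPM against 7.97, 6.85, 5.25, 4.24, and 3.52 CPM, a difference of 1.41. Its higher-score libraries lay close together, with an SD of 0.16, whereas the lower-score libraries had an SD of 0.41. *Bst1*, an enzyme that consumes NAD, ranged from 10.2 to 21.0 CPM against 3.28 to 7.31 CPM, a difference of 1.26.

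Some members of this list overlapped between the sides. *Aqp4*, a basolateral water channel of principal cells that also stands in the principal cell list, ranged from 31.3 to 55.3 CPM against 8.01 to 31.8 CPM, a difference of 1.41. *Epha7* had under 10 counts in some libraries and ranged from 0.716 to 3.26 CPM against 0.587 to 1.86 CPM. As a mean over the 7 genes, log2(CPM + 1) was 5.32 ± 0.19 (SD, n = 5) against 4.02 ± 0.32 (SD, n = 5) and did not overlap. Per unit of score, the slope of this mean was 1.51 in the 5 LP males and 1.93 in the 5 NP males, given as a description.

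Genes of the thick ascending limb, the segment of *Slc12a1* and *Umod*, were higher by a smaller amount. All 11 listed genes had a difference above 0, with a median of 0.34. Of these, 2 did not overlap, beside 1.38% of all genes that were higher without overlap. *Cldn16*, a claudin of the magnesium and calcium pathway between cells of this limb, stood at 10.1, 9.82, 9.44, 9.05, and 8.96 CPM against 7.97, 7.19, 6.92, 6.62, and 5.87 CPM. Both sides of *Cldn16* were narrow, and its difference was 0.41. *Ppp1r1a*, an inhibitor of protein phosphatase 1, ranged from 106 to 201 CPM against 67.0 to 102 CPM, a difference of 0.61. *Ptger3*, a prostaglandin E2 receptor, ranged from 30.8 to 65.2 CPM against 24.1 to 34.8 CPM. *Egf*, the growth factor precursor, ranged from 1144 to 1544 CPM against 1021 to 1457 CPM, with a difference of 0.20 over all 10 libraries, 0.39 within LP males, and 0.00 within NP males.

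The osmolyte genes were uneven. Of 8 names listed, 7 were in the annotation, since RefSeq gives *Akr1b1* and *Akr1b3* as names of 1 gene, and the median difference over the 7 was 0.09. *Akr1b1*, the aldose reductase that makes sorbitol, stood at 189, 156, 155, 141, and 112 CPM against 135, 85.8, 83.6, 68.1, and 67.3 CPM, a difference of 0.80 in which only LP male 3, at 135 CPM, reached into the higher-score range. *Slc6a12*, the betaine transporter, ranged from 3.02 to 13.4 CPM against 0.996 to 4.11 CPM, a difference of 1.05. *Slc5a3*, the myo-inositol transporter, ranged from 161 to 379.8 CPM against 118 to 201 CPM, a difference of 0.56. The taurine transporter *Slc6a6*, the tonicity factor *Nfat5*, *Hspa4l*, and *Pnpla6* had differences between -0.03 and 0.09. None of the 7 separated the sides gene by gene, beside 1.54% of all genes. Their mean per library did, at 6.14 to 6.52 against 5.90 to 6.05.

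Outside the thin limb genes, the principal cell list moved far less than *Aqp2* and *Fxyd4*. Of 10 listed genes, 8 had enough counts, 7 of them had a difference above 0, and the median was 0.23. None of the 8 separated the sides, beside 1.54% of all genes. The sodium channel subunits *Scnn1b* and *Scnn1g* differed by 0.15 each, and *Hsd11b2*, which protects the mineralocorticoid receptor from glucocorticoids, by 0.25. *Tfcp2l1*, a transcription factor of the distal nephron, stood at 213 to 477 CPM against 303 to 439.6 CPM, a difference of -0.06. *Elf5*, a principal cell transcription factor, had too few counts to be included, yet ranged from 3.09 to 5.74 CPM against 0.569 to 1.78 CPM with no overlap. The vasopressin receptor gene *Avpr2* was at 0 in 6 of 10 libraries.

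Among intercalated cells, which secrete acid or base in the collecting duct, genes listed for type A were higher by a median of 0.34. Those listed for type B were higher by 0.05. *Aqp6*, a channel of type A cell vesicles, stood at 71.3, 70.7, 59.2, 55.8, and 45.2 CPM against 33.7, 31.2, 31.1, 25.6, and 25.3 CPM. This was a difference of 1.01 with no overlap. *Aqp6* lies at chr15:99499075-99503358 on GRCm39, on the same strand as *Aqp2*, which ends at 99485016. *Slc4a1*, the anion exchanger of type A cells, ranged from 15.5 to 34.8 CPM against 8.32 to 18.01 CPM, a difference of 0.88. *Slc4a1* is also a red blood cell gene. *Foxi1*, the transcription factor of intercalated cells, ranged from 24.3 to 34.9 CPM against 18.3 to 24.01 CPM without overlap. Its difference was 0.38, and it stands in the type B list though it is not particular to type B. The type B exchangers *Slc26a4* and *Slc4a9* differed by 0.05 and -0.15.

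**Figure D3:**
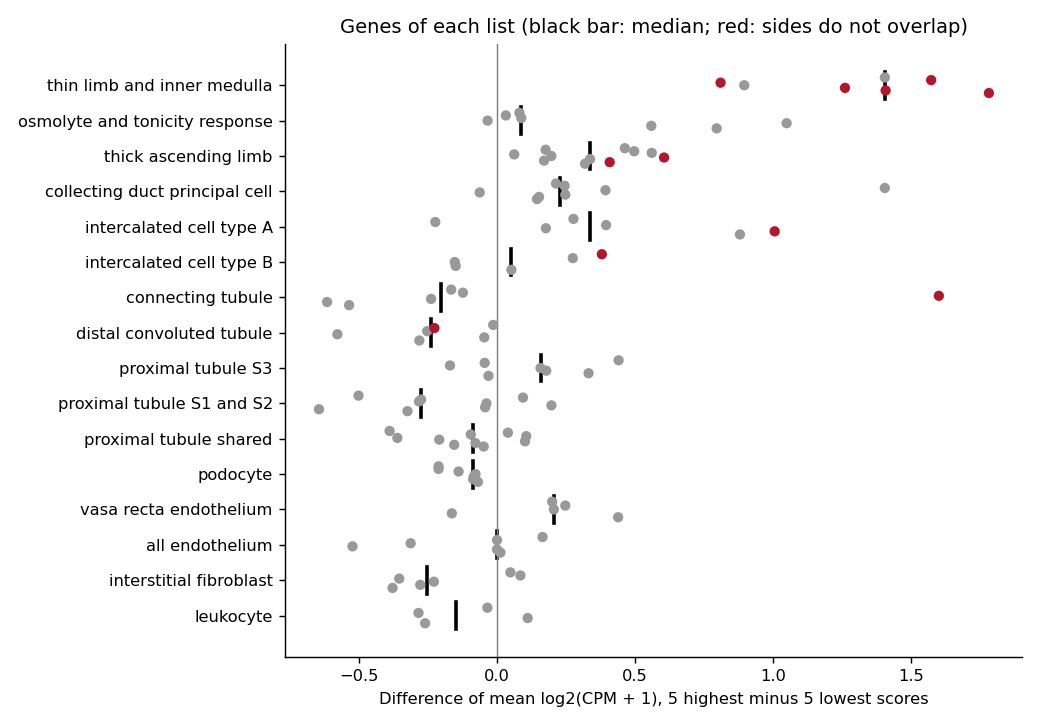
Difference of mean log2(CPM + 1), 5 highest minus 5 lowest scores, for each gene of 16 lists with at least 10 counts in every male library. Points are genes, red where the sides do not overlap, and the black bar is the median of the list, from 1.41 for the thin limb and inner medulla to -0.27 for the proximal tubule S1 and S2.

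In the distal convoluted tubule, a cortical segment, all 6 genes had a difference below 0, with a median of -0.24. Of these, 1 did not overlap, beside 0.159% of all genes that were lower without overlap. The differences ran down to -0.58 and were near 0 for *Wnk4* at -0.01 and *Pvalb* at -0.05, both of which were higher within NP males, by 0.17 and 0.40. The gene without overlap was *Cnnm2*, a magnesium transport regulator, at 49.1, 45.7, 42.3, 41.9, and 41.5 CPM against 57.0, 52.3, 50.3, 49.5, and 49.4 CPM. *Slc12a3*, the thiazide-sensitive cotransporter, ranged from 213 to 372 CPM against 299.8 to 512 CPM, a difference of -0.28. *Trpm6*, the apical magnesium channel, ranged from 7.75 to 14.8 CPM against 11.6 to 30.1 CPM, a difference of -0.58. In the lower-score libraries the high *Trpm6* values were those of LP male 1 at 30.1 CPM and LP male 2 at 19.2 CPM.

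The connecting tubule list split. *Calb1*, the calcium buffer calbindin, stood at 298, 289.6, 274, 257, and 202 CPM against 559.6, 489, 365, 338, and 233 CPM, a difference of -0.53. *Slc8a1*, the sodium-calcium exchanger, ranged from 70.4 to 123 CPM against 109 to 186 CPM, a difference of -0.61. *Trpv6*, an apical calcium channel, went the other way, with 13.9, 13.7, 6.65, 5.21, and 2.86 CPM against 2.70, 2.23, 1.63, 1.24, and 1.21 CPM. The lowest higher-score library was only just above the highest lower-score one, and LP males 4 and 5 held the top values. The difference of *Trpv6* was 1.60, with 2.31 within LP males and 1.23 within NP males. *Trpv5*, its neighbour on chromosome 6, differed by -0.24.

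The proximal tubule, most of the cortex, had no gene without overlap on any of its 3 lists. Over all genes, 1.54% did not overlap, so lists this short can hold none. In S1 and S2, the first parts of the proximal tubule, 7 of 9 genes had a difference below 0, and the median was -0.27. *Slc5a12*, a lactate transporter, ranged from 98.5 to 489.6 CPM against 149 to 492 CPM, a difference of -0.64 that was 0.04 within LP males and -1.21 within NP males. *Slc5a2*, the glucose transporter SGLT2, ranged from 148 to 373 CPM against 208 to 399 CPM, a difference of -0.32. *Slc34a1*, the main phosphate transporter, differed by -0.04. In S3, which reaches down into the outer medulla, the median over 7 genes was 0.16, and over 10 genes shared by all parts it was -0.09. The glomerular podocyte genes all had a difference below 0, 7 of 7, but the median was -0.09, and it was 0.17 within LP males and -0.26 within NP males.

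**Figure D4:**
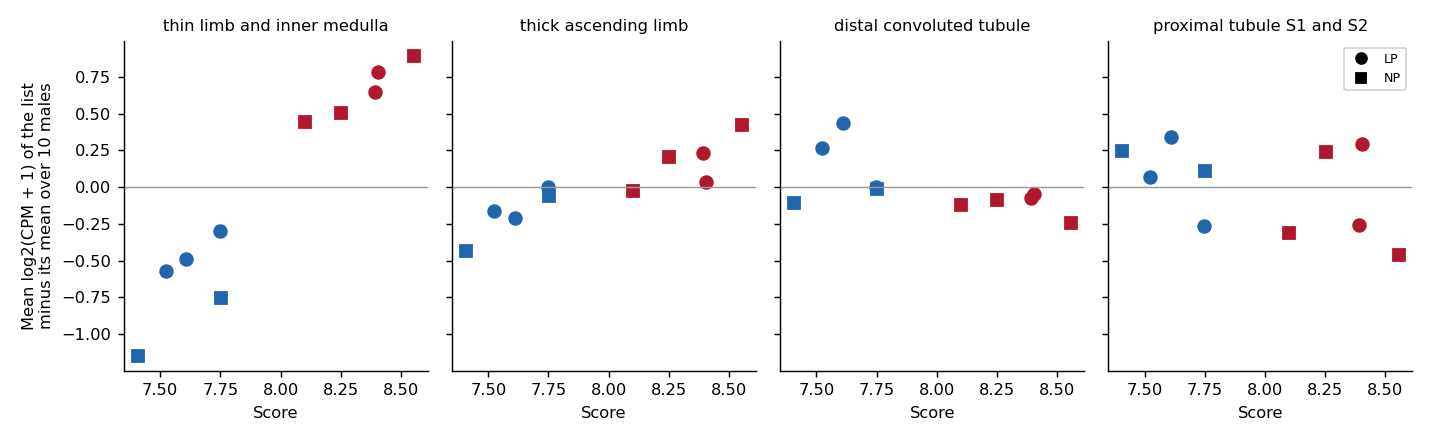
Mean log2(CPM + 1) of each list minus its mean over the 10 males, plotted against the score, with LP males as circles, NP males as squares, the 5 highest scores in red, and the 5 lowest in blue. The thin limb and inner medulla list climbs across the whole range of the score and separates the sides, the thick ascending limb and the distal convoluted tubule overlap, and the proximal tubule S1 and S2 list is scattered.

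For vessels, stroma, and tissue next to the kidney, no gene with enough counts separated the sides, beside 1.54% of all genes. Vasa recta genes had a median difference of 0.21 over 5 genes, and the urea transporter *Slc14a1* ranged from 1.76 to 6.71 CPM against 1.17 to 4.19 CPM. The medians were 0.00 for genes of all endothelium, 0.12 for glomerular endothelium and renin cells, -0.25 for fibroblasts, -0.15 for smooth muscle, and -0.15 for leukocytes. *Ren1*, renin, ranged from 47.5 to 67.1 CPM against 60.3 to 103 CPM, a difference of -0.44. The 6 urothelial genes summed to 8.33 to 93.0 CPM against 8.22 to 120.0 CPM. The 6 adipocyte genes summed to 4.49 to 81.3 CPM against 3.81 to 43.4 CPM, highest in LP male 4, NP male 2, and NP male 3. The adrenal genes *Cyp11b1* and *Cyp11b2* were at 0 in all 10 libraries, and the summed adrenal list was at most 2.97 CPM against 3.52 CPM.

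Blood and early response genes moved with the sides in part. The 5 red blood cell genes summed to 26.1 to 75.2 CPM against 10.1 to 50.0 CPM, with *Hba-a2* and *Hbb-bs* at 0 in all libraries. *Hba-a1*, an alpha globin that shares reads with a near-identical copy, stood at 70.2, 52.9, 37.8, 33.6, and 24.7 CPM against 46.4, 22.2, 9.85, 9.46, and 8.92 CPM. The overlap came from LP male 1 at 46.4 CPM. Immediate early genes had a median difference of 0.33, which was 0.97 within LP males and -0.15 within NP males. *Fos* reached 25.5 CPM in LP male 4 and lay between 2.13 and 8.96 CPM in the other 9 libraries. The part of blood and of early response genes in the other differences was not tested.

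The 21 genes that were lower in the higher-score libraries without overlap all differed by less than 1.5-fold on the log2(CPM + 1) scale. That scale understates the change of those near 1 CPM. Among them, the 10 with the largest negative difference ran from -0.46 for *Napb* and *Dpysl2* to -0.30 for *Dnai4*. *Dpysl2*, which encodes a microtubule-binding protein, stood at 6.77, 6.42, 6.42, 5.88, and 4.17 CPM against 10.98, 8.27, 8.19, 7.69, and 7.31 CPM. *Spc25*, a kinetochore subunit, ranged from 11.9 to 14.4 CPM against 16.5 to 23.4 CPM, a difference of -0.45, and *Smc4*, a condensin subunit, from 11.5 to 16.5 CPM against 17.7 to 21.7 CPM, a difference of -0.38. *Tfpi2*, a protease inhibitor, differed by -0.41, the kinase *Map3k12* by -0.38, and the splicing factor *Srsf4* by -0.37. *Gm66970* and *Gm48072*, both lncRNA genes near 1 CPM, differed by -0.40 and -0.36.

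Whether the score followed the maternal diet was tested, since the diet labels did not enter it. The mean score was 7.94 ± 0.43 (SD, n = 5) in LP males versus 8.01 ± 0.45 (SD, n = 5) in NP males, a difference of -0.08 (exact two-sided permutation test, p = 0.786). The smallest p that 5 against 5 allow is 0.00794. The sign was not stable: the difference was 0.088 with the thick ascending limb genes alone, 0.003 without LP male 1, 0.02 without LP male 2, and 0.057 without NP male 5. The spread of the score within each diet was thus several times the difference between the diets.

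The diet comparison in males was fitted with and without the score as a covariate, to see whether piece-to-piece content moved it. With edgeR's quasi-likelihood test, 5 of 13176 genes had an adjusted p under 0.05 with diet alone (0.0379%), and 5 with the score in the model (0.0379%). They were the same 5 genes in both fits, *Gfra1*, *Aldh1a1*, *Dvl1*, *Tbc1d9*, and 4122401K19Rik, and all were lower in LP males. DESeq2 called 7 genes higher and 12 lower in LP males with diet alone, and 5 higher and 10 lower with the score. The edgeR call count of either fit depended on single libraries, from 2 to 6 with diet alone and from 2 to 5 with the score. It was 2 with diet alone when LP male 2, LP male 5, NP male 2, NP male 3, or NP male 5 was left out, and to 2 with the score when LP male 2, LP male 5, or NP male 4 was left out.

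*Gfra1*, the co-receptor for GDNF, was at 2.33 to 3.80 CPM in the 5 LP males. In NP males it was at 20.0, 24.9, and 24.2 CPM in the 3 higher-score libraries and at 52.8 and 54.1 CPM in the 2 lower-score ones. The log2 fold change of LP versus NP males was -3.60 (SE 0.32, adjusted p = 0.000445) with diet alone and -3.57 (SE 0.20, adjusted p = 1.62e-05) with the score (edgeR). Between the sides as a whole *Gfra1* differed by -0.01, and within NP males by -1.18. *Aldh1a1*, a retinaldehyde dehydrogenase, was at 5.20 to 8.53 CPM in LP and 21.4 to 31.4 CPM in NP males. The LP versus NP log2 fold change of *Aldh1a1* was -2.05 (SE 0.17, adjusted p = 0.000445) with diet alone and -2.04 (SE 0.18, adjusted p = 0.000937) with the score (edgeR). *Gfra1* and *Aldh1a1* stayed called in both fits when any 1 of the 10 libraries was left out.

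4122401K19Rik was at 6.06 and 7.83 CPM in the 2 higher-score LP males, 9.53, 10.2, and 14.2 CPM in the 3 lower-score LP males, and 22.7 to 27.9 CPM in NP males. LP males were lower than NP males by a log2 value of -1.40 (SE 0.20, adjusted p = 0.0339) with diet alone and -1.47 (SE 0.17, adjusted p = 0.0133) with the score (edgeR). It stayed called in 2 of 10 leave-one-out fits with diet alone and in 7 of 10 with the score. *Dvl1*, an adaptor of Wnt signaling, was at 73.6 to 94.0 CPM in LP and 107 to 134 CPM in NP males, and its adjusted p was 0.0297 without and 0.0342 with the score (edgeR). *Tbc1d9* was at 2.99 to 8.30 CPM in LP and 12.99 to 19.2 CPM in NP males, and its adjusted p was 0.0367 without and 0.0342 with the score (edgeR). *Dvl1* stayed called in 2 of 10 such fits without and 1 of 10 with the score, and *Tbc1d9* in 2 of 10 of each. Of the other listed diet candidates, *Col5a1*, *Egln3*, *Trpv5*, *Foxd1*, *Hif1an*, and *Pax8* did not pass in either edgeR fit, and *Fgf10* had too few counts. These fits adjusted over 13176 genes, whereas the study adjusted its candidates within subcategories. With diet alone, unadjusted edgeR p was 0.00041 for *Col5a1*, 0.0015 for *Trpv5*, 0.0045 for *Pax8*, and 0.0062 for *Egln3*. It was 0.021 for *Foxd1* and 0.073 for *Hif1an*. DESeq2 called *Col5a1*, a collagen gene, with an adjusted p of 0.0106 without and 0.0180 with the score, against 0.562 and 0.632 in edgeR. Between the sides of the score, the 11 candidates with enough counts had a median difference of 0.01.

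**Figure D5:**
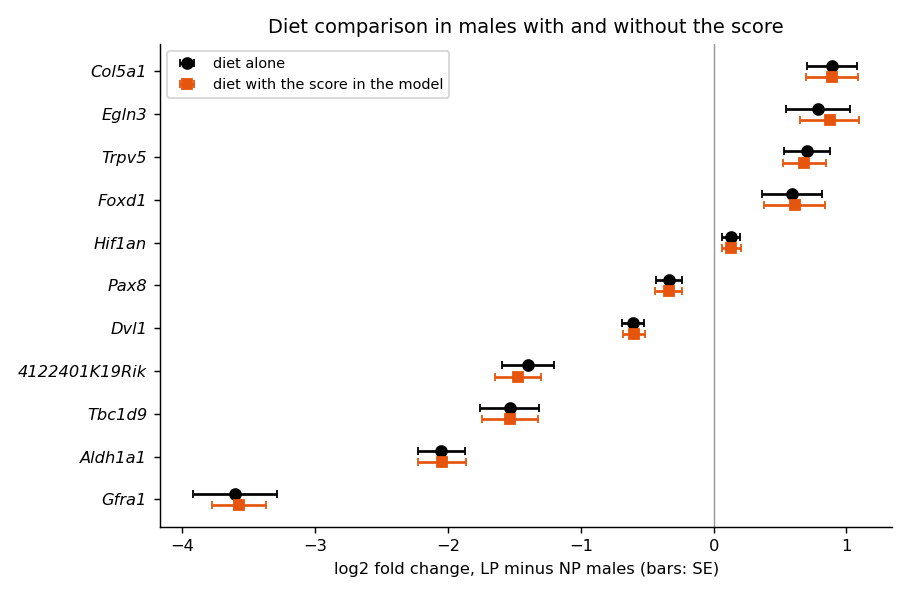
log2 fold change of LP minus NP males for 11 diet candidate genes, from edgeR with diet alone (black circles) and with the score in the model (orange squares), with bars for the SE. The paired points lie close together for every gene, and the bar of *Gfra1* shortens from 0.32 to 0.20.

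The 8 females gave a test of the same score in libraries that the sides did not use. Their scores ran from 8.06 to 8.95 with a median of 8.45. With diet in the model, 0 of 13505 genes (0%) had a slope on the score with an adjusted p under 0.05 (edgeR), 406 had an unadjusted p under 0.05, and DESeq2 called 5. In simulated data of this size, edgeR recovered 0% of 188 genes at slope 2 and 92.3% of 182 genes at slope 4. No slope between these was simulated, and with fewer changed genes the cutoff is stricter. Of the 69 male genes, 68 were tested in females and 53 (77.9%) had a slope above 0, beside 45.4% of all genes. Their median slope was 0.46, beside -0.05 over all genes, and the 8 with an unadjusted p under 0.05 were all above 0.

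The direction in females rested on 3 libraries. LP female 1, LP female 2, and NP female 3 had 11.3%, 10.4%, and 16.5% of counts on mitochondrial genes, against 6.74% to 8.70% in the other 5. Without these 3 libraries, 36 of 69 male genes (52.2%) had a slope above 0, beside 49.5% of all genes. In these libraries the parts of the score came apart: the mean of *Aqp2*, *Aqp3*, and *Fxyd4* was 7.28 in NP female 3, the highest of the 8 females, while that of *Slc12a1* and *Umod* was 9.92, the second lowest. With a score of the 3 collecting duct genes alone, 1445 genes were called. Under it, 17 of 68 male genes (25.0%) had a slope above 0, beside 49.6% of all genes. Once the 3 libraries were left out, that score gave 2 calls. Then 33 of 69 male genes (47.8%) had a slope above 0, beside 49.1% of all genes. With a score of the thick ascending limb genes alone, 57 of 68 (83.8%) had a slope above 0, beside 49.3% of all genes. The limb score gave 0 calls, with 2822 genes at an unadjusted p under 0.05 (edgeR).

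By gene group, all 7 tested thin limb and inner medulla genes had a female slope above 0, beside 45.4% of all genes. Their median was 1.41, and 2 had an unadjusted p under 0.05 (edgeR), beside 3.01% of all genes. *Slc4a11* had a slope of 1.71 (SE 0.62, unadjusted p = 0.0240, adjusted p = 0.999) in edgeR, and *Bst1* had 2.11 (SE 0.42, unadjusted p = 0.000929, adjusted p = 0.999). Without the 3 libraries the median was 0.47 over 8 genes, 5 of them above 0. With the score of collecting duct genes alone 0 of 7 were above 0, with a median of -0.58. That score without the 3 libraries gave 5 of 8 above 0, with a median of 0.50. All 9 genes of the proximal tubule S1 and S2 and all 6 of the distal convoluted tubule had a slope below 0, with medians of -1.07 and -0.53. The other proximal lists went the other way. In S3 the median was 1.38, near that of the thin limb list, with 6 of 8 genes above 0. Shared proximal genes had a median of 0.35, with 6 of 10 above 0. These distal and proximal medians are from all 8 females. Among all genes, the smallest unadjusted p for a slope above 0 belonged to *Ptger3*, *Egfl6*, *Bst1*, *Frzb*, and *Capg*, and for a slope below 0 to *Fut9*, *Olfm3*, *Enpp6*, *Xist*, and *Gm128*. The slope of *Ptger3* was 1.91 and that of *Egfl6*, an extracellular matrix protein, 2.57. *Bst1*, *Egfl6*, and *Capg* were also among the 69 male genes. None of these 10 passed in edgeR, and DESeq2 called *Ptger3*, *Egfl6*, *Bst1*, *Fut9*, and *Olfm3*.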

How the data were processed

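Poly(A) RNA of 18 mouse kidneys was sequenced with a non-directional protocol, and the authors deposited raw counts of reads per gene from STAR (version not given in the sources used here) on GRCm39 with GENCODE vM36. The unstranded column was used, so overlapping genes on opposite strands cannot be told apart. Lines that name no gene (28.6% to 30.8% of reads in males) were left out. Gene positions come from GENCODE vM39 on GRCm39, which holds 78168 of 78239 genes. Male totals ran from 14050486 to 21794303 counts on genes.

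CPM were computed from the total on genes. The 5 highest and 5 lowest scores were compared over genes with at least 10 counts in every male library by the difference of mean log2(CPM + 1), by overlap of the sides, and at 1.5-fold, with no test. The score was compared between diets with an exact two-sided permutation test. Diet and score slopes were fitted with edgeR 4.0.16 (R 4.3.3, TMM, quasi-likelihood test, Benjamini-Hochberg over all genes tested). Each SE given with edgeR was derived from the test, as the absolute log2 value divided by the square root of its F statistic. The study used DESeq2, which was run as an alternative (DESeq2 1.42.0). In simulated data edgeR recovered 86.4% of 191 genes changed by 1 on the log2 scale in the male diet fit. With the score in the model it recovered 78.1% of 192 such genes. The real fits called 5 genes each, and with fewer changed genes the cutoff is stricter, so these shares need not hold there. Same-numbered LP and NP males had correlations of -0.29, -0.16, -0.19, 0.06, and 0.31, with no clear sign that numbers pair mice. Whether numbers mark a shared batch was not tested. Samples are separate mice, but the litter of each library is not given in the sources used here. Mice may share litters, and the tests treat them as independent. The libraries, 25 gene lists, and tests were chosen with earlier results of these data known. Genes named are the score genes, the 10 highest and 10 lowest differences without overlap, abundant list members, the diet genes called or listed as candidates, and the 5 smallest p in each direction in females. Further list members and genes are named with their values known. Alternatives were other scores, scalings, filters, pseudocounts, tools, a replicate block, and leaving out libraries. Added after seeing the data were the sides within each diet, the sides without the highest and lowest score, and the collecting duct score in females without 3 libraries. Scores and figures were made in Python 3.11.15 with scipy 1.17.1, numpy 2.4.6, matplotlib 3.10.9, and pandas 2.3.3. Some genes of the lists are counted in list summaries but their own values are not reported here.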

Additional observations from a re-analysis of the deposited data

Results flagged for a closer look

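The mean log2(CPM + 1) of the 7 podocyte genes was 4.09 in LP male 3 and 4.53 to 4.65 in the other 4 LP males. It was the 1 flagged value in 98 tests for a sample far from the others of its group, and chance flags about 1 in 20. LP male 3 was on the lower-score side, at 7.75.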

How the results depend on the processing

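For the score sides, the 69 genes higher without overlap and at least 1.5-fold became 12 with the sides set by the thick ascending limb genes, which exchanged NP male 1 and NP male 4, and 223 with 3 against 3 libraries, where fewer samples make overlap rarer. Leaving out 1 library gave 56 to 139, with 139 without NP male 1. Among gene lists, medians moved within 1 diet, an alternative chosen after seeing the data: 1.72 for thin limb and inner medulla and -0.21 for shared proximal tubule genes within NP males, and 0.34 for osmolyte, 0.60 for type A intercalated, and 0.97 for immediate early genes within LP males. The other list medians moved by less than the spread between libraries under TMM, a diet term, another pseudocount, and each library left out. For the score by diet, the sign turned with the thick ascending limb genes (0.088) and without LP male 1 (0.003), LP male 2 (0.024), or NP male 5 (0.0568), and leaving out libraries gave -0.23 to 0.057. The diet fit gave 19 calls with DESeq2, 9 with no filter, and 2 to 6 with each library left out. With the score it gave 15, 18, and 2 to 5. The replicate block gave 2 calls in each diet fit, and whether the numbers mark a shared batch was not tested. In females the 0 calls became 5 with DESeq2 and 1445 with collecting duct genes alone. Without the 3 libraries that stood apart, the 5-gene score still gave 0 calls, and the score of collecting duct genes gave 2. The causes were not tested. Depth limits genes near 1 CPM.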

Other observations

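Of the 69 genes higher without overlap and at least 1.5-fold, 61 were on none of the gene lists, and the following were chosen after their values were seen. *Epcam*, an epithelial adhesion molecule, ranged from 77.3 to 114 CPM in the higher-score and 44.9 to 63.9 CPM in the lower-score libraries. *Dsp*, a desmosome plaque protein, ranged from 39.0 to 76.4 CPM against 21.7 to 37.6 CPM, and *Ppl*, a plakin, from 10.5 to 21.0 CPM against 4.76 to 7.46 CPM. *Cldn7*, a claudin of the distal nephron, ranged from 17.8 to 30.8 CPM against 10.8 to 17.6 CPM. *Cd24a* ranged from 118 to 221 CPM against 72.5 to 97.2 CPM. The facilitative glucose transporter *Slc2a1* ranged from 36.2 to 58.2 CPM against 18.8 to 32.9 CPM.

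Transcription factors were also among the 69. *Elf3* ranged from 24.3 to 42.0 CPM against 12.01 to 22.2 CPM, and *Ehf*, of the same ETS family, from 29.6 to 59.2 CPM against 21.2 to 26.6 CPM. *Grhl2*, an epithelial regulator, ranged from 6.84 to 11.2 CPM against 3.399 to 6.29 CPM. The homeobox genes *Hoxb9* and *Hoxb6* ranged from 17.2 to 27.6 CPM against 11.2 to 14.2 CPM and from 22.01 to 27.5 CPM against 11.8 to 19.1 CPM. *Angpt2*, a vascular ligand, differed by 1.22, *Nupr1*, a stress-induced chromatin protein, by 1.23, and the cell cycle inhibitor *Cdkn2b* by 1.21. Which cells expressed these genes was not measured.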
